A study of Mus musculus with 14 samples.

Results

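Intronic H3K27me3 peaks lying away from gene starts were examined in mouse primary hippocampal neurons after knockdown of the long noncoding RNA NeuID. A peak was taken when it was under 2 kb wide, overlapped the body of a protein-coding gene, overlapped no exon of any gene and lay more than 3 kb from every annotated gene start, whatever the gene type. Of the 23668 peaks the authors listed, 22975 were narrow enough, 10297 of these overlapped a protein-coding gene body, 6329 also overlapped no exon, and 5224 met all the clauses, which is 22.1% of the list. Position and width alone chose them, and no level of H3K27me3 was used.

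The neurons were wild type and came from hippocampi of outbred CD1 embryos, with the sexes mixed. Control cultures received a control gapmer, which the value columns call NC, and knockdown cultures received a gapmer against NeuID, both delivered in lipid nanoparticles. A gapmer is a short oligomer with a DNA core that pairs with its target RNA and leads to its cleavage. By their titles, 6 ChIP libraries were Control and 6 were NeuID knockdown, all made with an anti-H3K27me3 antibody, and each condition had 1 input library, and nothing states which libraries came from separate cultures or litters. The target RNA itself was not measured in these files, so the knockdown could not be checked here. Each peak carries the authors' mean over all libraries and over each group, as log2 normalized reads, and no value for a single library was used. There is therefore no SD, no n and no test behind any difference below, and whether a difference exceeds the spread between replicates is not known. The overall mean weighted the control mean by 0.545, which matches 6 control to 5 knockdown libraries better than 6 to 6.

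H3K27me3 is the trimethylated form of lysine 27 of histone H3, written by EZH1 or EZH2 within Polycomb repressive complex 2. The mark covers broad domains over silent developmental genes, whose starts are usually rich in unmethylated CpG, and it spreads outward from there by a subunit of the complex that binds the mark itself. In neurons it is known for holding genes of other lineages and of earlier developmental stages silent. Introns hold many of a gene's enhancers and lie at varying distances from the domain over a gene's start.

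The base composition of strong and of strongly differing members is shown by the central 300 bases of 8 peaks, read from the plus strand of mm10 (GRCm38). CpG dinucleotides are in capitals. The first 2 are among the members with the highest overall mean and lie in introns of Sim1 and Hoxc4, both developmental transcription factors.
Sim1, chr10:50900703-50901002: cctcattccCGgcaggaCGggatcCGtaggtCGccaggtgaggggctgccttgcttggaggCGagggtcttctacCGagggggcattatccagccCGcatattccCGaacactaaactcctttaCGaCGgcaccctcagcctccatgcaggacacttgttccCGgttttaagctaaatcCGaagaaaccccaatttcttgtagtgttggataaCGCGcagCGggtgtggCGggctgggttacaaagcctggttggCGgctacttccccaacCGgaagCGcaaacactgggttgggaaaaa
Hoxc4, chr15:103022725-103023024: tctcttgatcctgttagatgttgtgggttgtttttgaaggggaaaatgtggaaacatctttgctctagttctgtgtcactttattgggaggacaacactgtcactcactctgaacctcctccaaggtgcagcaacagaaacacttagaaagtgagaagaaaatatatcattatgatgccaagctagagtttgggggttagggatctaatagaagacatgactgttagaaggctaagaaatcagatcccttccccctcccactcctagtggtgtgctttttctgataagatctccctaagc
The Sim1 window held 19 CpG dinucleotides at 57.0% GC, while the Hoxc4 window held 0 at 42.7% GC. Both had nearly the same level. The next 3 had a knockdown mean far below the control mean, the last of them with a knockdown mean listed at 0.
Gm4894, chr9:49256592-49256891: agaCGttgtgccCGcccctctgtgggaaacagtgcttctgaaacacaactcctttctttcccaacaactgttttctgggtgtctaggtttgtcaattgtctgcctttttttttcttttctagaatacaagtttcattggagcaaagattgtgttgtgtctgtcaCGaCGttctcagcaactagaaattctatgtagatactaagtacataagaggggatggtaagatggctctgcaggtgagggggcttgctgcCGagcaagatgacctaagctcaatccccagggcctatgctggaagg
Pax8, chr2:24471352-24471651: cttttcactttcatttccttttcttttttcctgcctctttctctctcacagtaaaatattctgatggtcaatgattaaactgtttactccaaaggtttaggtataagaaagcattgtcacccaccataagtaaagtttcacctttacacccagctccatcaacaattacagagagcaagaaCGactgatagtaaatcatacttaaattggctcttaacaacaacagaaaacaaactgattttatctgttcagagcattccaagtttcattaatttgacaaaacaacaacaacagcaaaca
Rspo4, chr2:151846602-151846901: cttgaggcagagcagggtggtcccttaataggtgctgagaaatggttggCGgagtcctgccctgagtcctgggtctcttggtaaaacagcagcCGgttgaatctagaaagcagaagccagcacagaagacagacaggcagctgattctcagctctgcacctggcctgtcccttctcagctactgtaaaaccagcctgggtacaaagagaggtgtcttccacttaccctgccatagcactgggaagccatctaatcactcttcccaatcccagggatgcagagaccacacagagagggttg
These windows held 5, 1 and 2 CpG dinucleotides. The last 3 had a knockdown mean far above the control mean, the last of them with a control mean listed at 0.
Zfhx3, chr8:108443933-108444232: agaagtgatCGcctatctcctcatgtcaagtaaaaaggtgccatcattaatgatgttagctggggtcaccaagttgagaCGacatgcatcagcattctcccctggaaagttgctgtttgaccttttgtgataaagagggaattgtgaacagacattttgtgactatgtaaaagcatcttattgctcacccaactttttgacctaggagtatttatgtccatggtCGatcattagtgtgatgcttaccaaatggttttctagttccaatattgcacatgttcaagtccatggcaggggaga
Tex14, chr11:87439125-87439424: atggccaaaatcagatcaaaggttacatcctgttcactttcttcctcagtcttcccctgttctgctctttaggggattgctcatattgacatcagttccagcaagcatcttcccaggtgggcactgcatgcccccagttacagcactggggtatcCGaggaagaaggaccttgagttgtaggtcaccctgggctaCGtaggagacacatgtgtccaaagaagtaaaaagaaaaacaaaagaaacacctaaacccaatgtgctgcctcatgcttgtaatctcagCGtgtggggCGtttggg
Rgs6, chr12:82947813-82948112: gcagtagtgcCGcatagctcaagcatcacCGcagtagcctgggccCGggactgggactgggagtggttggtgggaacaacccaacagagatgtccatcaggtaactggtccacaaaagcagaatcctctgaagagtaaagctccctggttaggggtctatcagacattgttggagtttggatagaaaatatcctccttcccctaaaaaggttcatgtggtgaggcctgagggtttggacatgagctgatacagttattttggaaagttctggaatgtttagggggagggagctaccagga
They held 3, 4 and 3. The windows of members that differed in opposite directions were alike in their low CpG count. All members had a median of 10.7 CpG dinucleotides per kb, so a low count is not particular to these windows.

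The members were short and weak. Their median width was 388 bp, with quartiles of 307 and 506 bp and a range of 174 to 1949 bp. The median overall mean was 2.76 (log2), which is 6.76 normalized reads in a library. Per kb of peak the median was 17.3 normalized reads, against 20.7 for narrow peaks within 1 kb of a protein-coding gene start and 28.4 for the 693 peaks of 2 kb or more. Narrow peaks outside genes, over 10 kb from any start, had 17.3 and a median overall mean of 2.78. Intronic and intergenic narrow peaks were thus alike in level.

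Control and NeuID knockdown neurons had the same typical level over these introns. In log2 normalized reads, the members had a control median of 2.79 and a knockdown median of 2.79, and the median difference, knockdown minus control, was -0.005. Summed over all members, the knockdown means came to 98.6% of the control means, and over all listed peaks to 97.1%. Single members spread widely around this centre: the quartiles of the difference were -0.92 and 0.87. A knockdown mean at least 2-fold lower was found for 1215 members, or 23.3%, against 20.6% of all listed peaks. A knockdown mean at least 2-fold higher was found for 1182, or 22.6%, against 20.4% of all peaks. The knockdown mean was listed at 0, meaning no more than 1 normalized read, in 228 members (4.36%, 3.35% of all peaks), and the control mean in 207 (3.96%, 3.28% of all peaks). Lower and higher members were close to balanced, and both shares lay a little above those of the whole list.

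The other classes of peak differed in how widely they spread. In the 2267 narrow peaks at protein-coding gene starts, 14.8% were at least 2-fold lower and 16.9% higher. In the 1632 narrow exonic peaks over 3 kb from any start the shares were 18.7% and 20.04%. The 6537 intergenic peaks, at 22.6% and 22.3%, were nearly the same as the introns. Of the peaks of 2 kb or more, 2.74% were lower and 0.577% higher, and their summed knockdown level was 91.8% of the control. With no values per library these differences between classes were not tested.

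The group means of a member said little about each other. Across the 5224 members, Pearson's r between the control and the knockdown mean was -0.07, against 0.49 at gene starts, 0.31 in exonic peaks, -0.04 in intergenic peaks and 0.83 in peaks of 2 kb or more. Among the 253 members with an overall mean of at least 4, r was 0.11, against 0.39 among the 790 such peaks at gene starts. These are descriptions across peaks that share libraries, normalization and a lower limit on what could be called as a peak, and the range of levels differs between the classes.

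**Figure D1:**
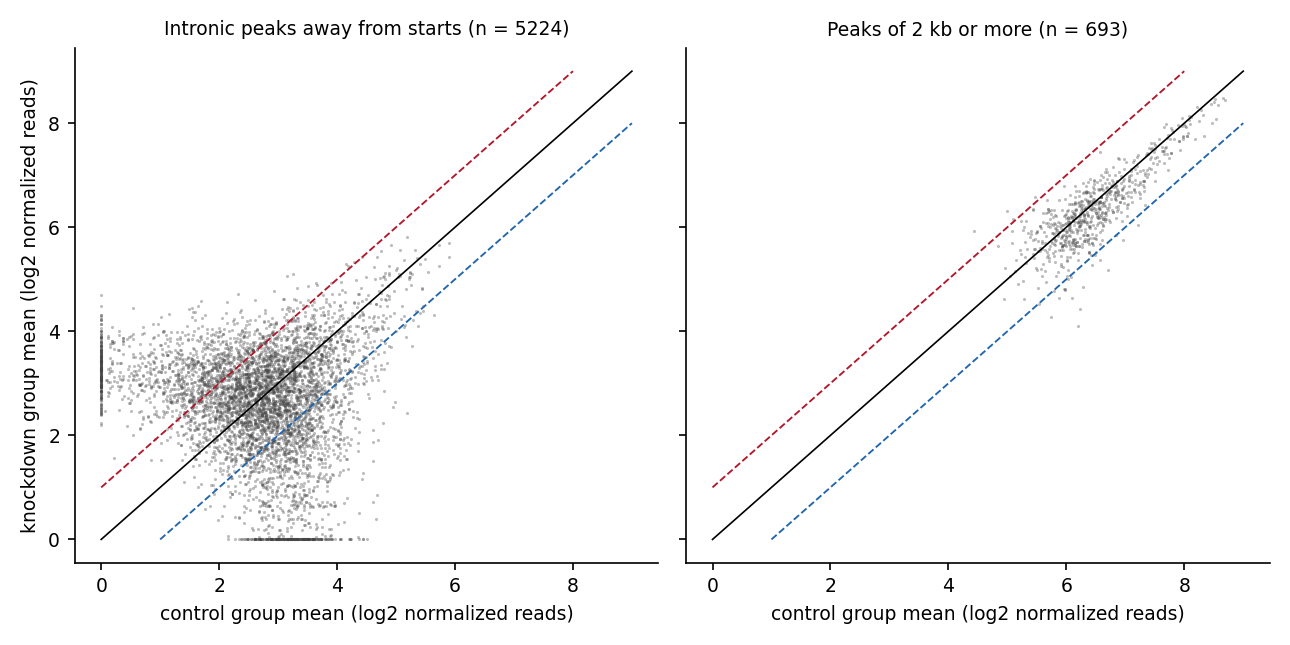
Control group mean (horizontal axis) against NeuID knockdown group mean (vertical axis), both in log2 normalized reads, for the 5224 intronic peaks (left) and the 693 peaks of 2 kb or more (right), 1 point per peak. The solid line marks equal means and the dashed lines a 2-fold difference; the intronic peaks form a round cloud with a row of points at 0 on each axis, and the wide peaks follow the line of equal means.

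The spread narrowed with level, in the introns as elsewhere. With peaks grouped by the equally weighted mean of both groups, 31.7% of the 388 members below 2 were at least 2-fold lower and 25% at least 2-fold higher. Between 2.5 and 3, the fullest bin with 1753 members, both shares were 23.8%. Between 3.5 and 4 they were 15.3% and 13.7%, and at 4 and above, with 253 members, 13.8% and 7.51%. The other peaks under 2 kb had 31.6% and 27.9%, 22.6% and 23.4%, 16.0% and 16.2%, and 9.20% and 7.31% in the same bins. Below 4 the introns thus spread about as widely as other narrow peaks of the same level. At 4 and above more of them were at least 2-fold lower, but that bin has no upper limit and does not match levels. It held 4.84% of the members and 13.4% of the other narrow peaks. By the mean over all libraries, members reached 5.81 and narrow intergenic peaks 9.33.

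The members were spread along their genes, and 55.2% lay nearer to the start of the gene body than to its end. Their distance from gene starts was partly set by the rule, which required more than 3 kb. The median distance to the nearest gene start of any type was 22.1 kb, with quartiles of 9.63 and 51.9 kb. The largest value was 810 kb, and the nearest exon was a median of 4.11 kb away. Of 5131 members placed in a numbered intron of their host, 1528 (29.8%) lay in intron 1 and 943 in intron 2. Their density was 6.18 per Mb over the 845 Mb of intronic sequence open to the rule, beside 6.14 per Mb for intergenic peaks over 1061 Mb. By chromosome it ran from 3.38 per Mb on chromosome 3 to 9.83 on chromosome 11. The next listed peak was a median of 11.1 kb away, against 5.56 kb for all other peaks, and 31.5% of members had a neighbour within 3 kb, against 42.9%. Intronic peaks were as dense as intergenic ones and more scattered than the rest of the list.

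The distance clause did not cut at a step in level. The 277 members between 3 and 4 kb from a start had a median overall mean of 2.98, and the 335 intronic peaks just outside, between 2 and 3 kb, had 2.97. At the width clause, the 32 members of 1500 bp or more had a median overall mean of 5.09, and the 28 peaks of 2 kb or more that met the other clauses had 6.03, with median differences of -0.20 and -0.19. The overall mean counts reads over the whole peak and so grows with width.

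Width, spacing and host gene went with the direction of the difference. In members under 300 bp the summed knockdown level was 111% of the control, and it was 107% from 300 to under 400 bp, 95.7% from 400 to under 600 bp, 87.6% from 600 to under 1000 bp and 93.3% in the 145 members of 1000 bp or more. The 1296 members with no other peak within 50 kb stood at 105% and the 981 with one closer than 1 kb at 91.1%. In the latter, 22.9% were at least 2-fold lower and 15.3% higher, and in the former 24.2% and 25.6%. The 345 members within 10 kb of a peak of 2 kb or more stood at 89.6%. Isolated, short peaks were on balance slightly higher after knockdown, and clustered, wider peaks lower.

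Among members of like width, the sums and the shares at least 2-fold higher also stood lower where peaks were close together. The medians and the shares at least 2-fold lower leaned the same way in 2 of 3 width classes. From 300 to under 400 bp, members with a neighbour within 3 kb stood at 98.8% of the control and those with none within 10 kb at 112%. From 600 to under 1000 bp the values were 81.6% and 94.6%, and from 400 to under 600 bp they were 94.4% and 97.9%. In this last class, the one with the most members, the median differences of -0.07 and -0.06 were nearly the same. Of the close members 23.5% were at least 2-fold lower and 16.9% higher, and of the isolated ones 24.8% and 22.8%. The peak list was made from the same libraries as the levels, so width and spacing are not independent of the levels. The part of this in the pattern was not tested.

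**Figure D2:**
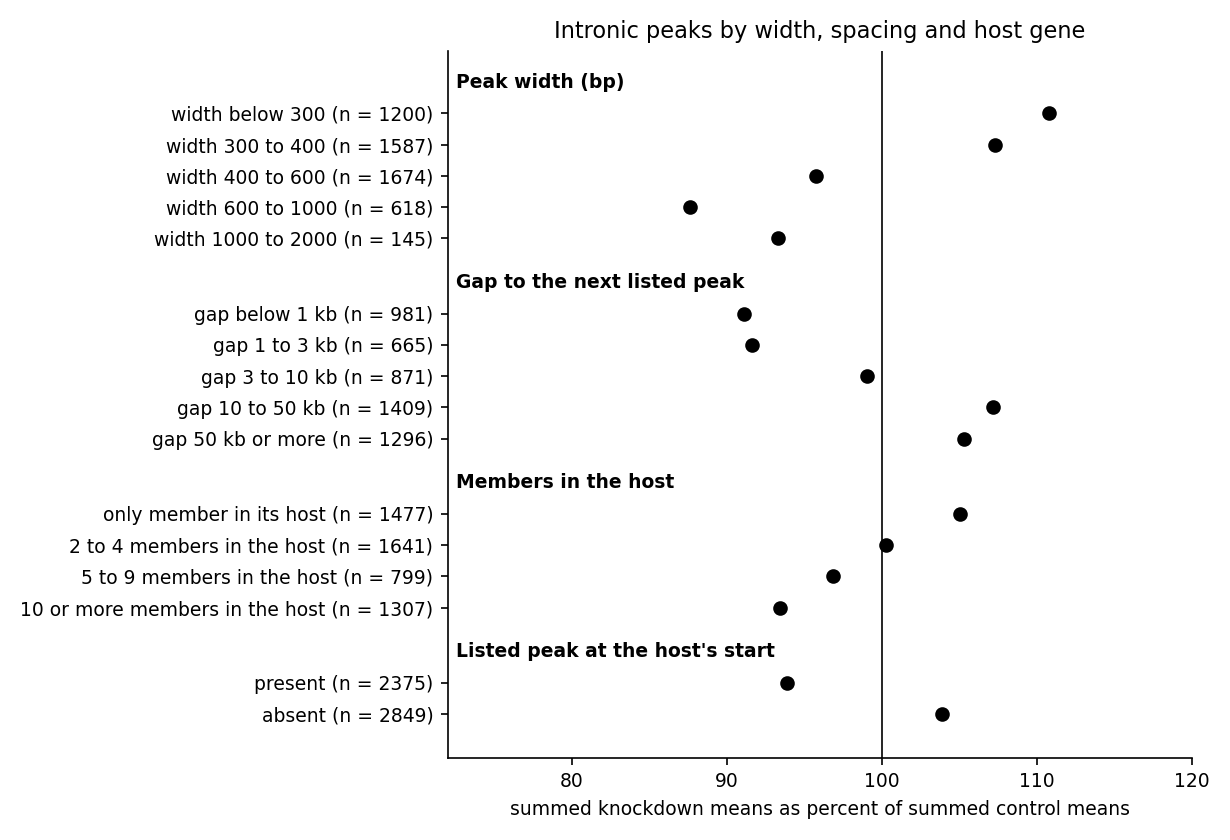
Summed knockdown means as percent of summed control means (horizontal axis, not starting at 0) for intronic peaks grouped by width, by gap to the next listed peak, by number of members in the host gene and by a listed peak within 3 kb of the host's start; n is the number of peaks. Short peaks, isolated peaks and peaks in hosts with no peak at their start sit above 100%, and wider, clustered ones below; each point is a ratio of sums of the authors' means and carries no error.

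The members fell in 2392 of the 22028 protein-coding genes of the annotation, and 1540 hosts (64.4%) held 1 member. Another 668 held 2 to 4, 184 held 5 or more, and 60 held 10 or more. These 60 genes held 1307 members, or 25.02%. Of all members, 4843 (92.7%) also lay inside a RefSeq protein-coding gene body. Hosts were long, with a median of 91.3 kb against 17.3 kb for all protein-coding genes, and the 60 had a median of 272 kb. A listed peak within 3 kb of the gene's own start, the sign of a marked promoter, was present for 24.4% of hosts with 1 member, 63.0% of those with 5 or more and 43 of the 60, against 13.5% of all protein-coding genes. Genes with many intronic peaks mostly also carried the mark at their start. Their length was partly set by the rule, which needs gene body free of exons and more than 3 kb from every start. A longer gene also has more room for peaks, so the lengths are no separate finding.

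Levels followed this division. In the 2375 members whose host had a peak at its start, the control median was 2.98 and the knockdown median 2.90, the summed knockdown level was 93.9% of the control, and 23.4% of members were at least 2-fold lower and 19.4% higher. In the 2849 members of other hosts the medians were 2.66 and 2.69, the sum 104%, and the shares 23.1% and 25.3%. In the 60 hosts with 10 or more members the sum was 93.4%, with shares of 24.02% and 19.2%, and in hosts with 1 member it was 105%, with 24.2% and 26.8%. The median difference lay below 0 in 38 of these 60, and their sums ran from 62.9% to 204% of the control. For the counts in single hosts below, the shares over all members were 23.3% at least 2-fold lower and 22.6% higher. Over all listed peaks they were 20.6% and 20.4%, and no host was tested against these shares.

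**Figure D3:**
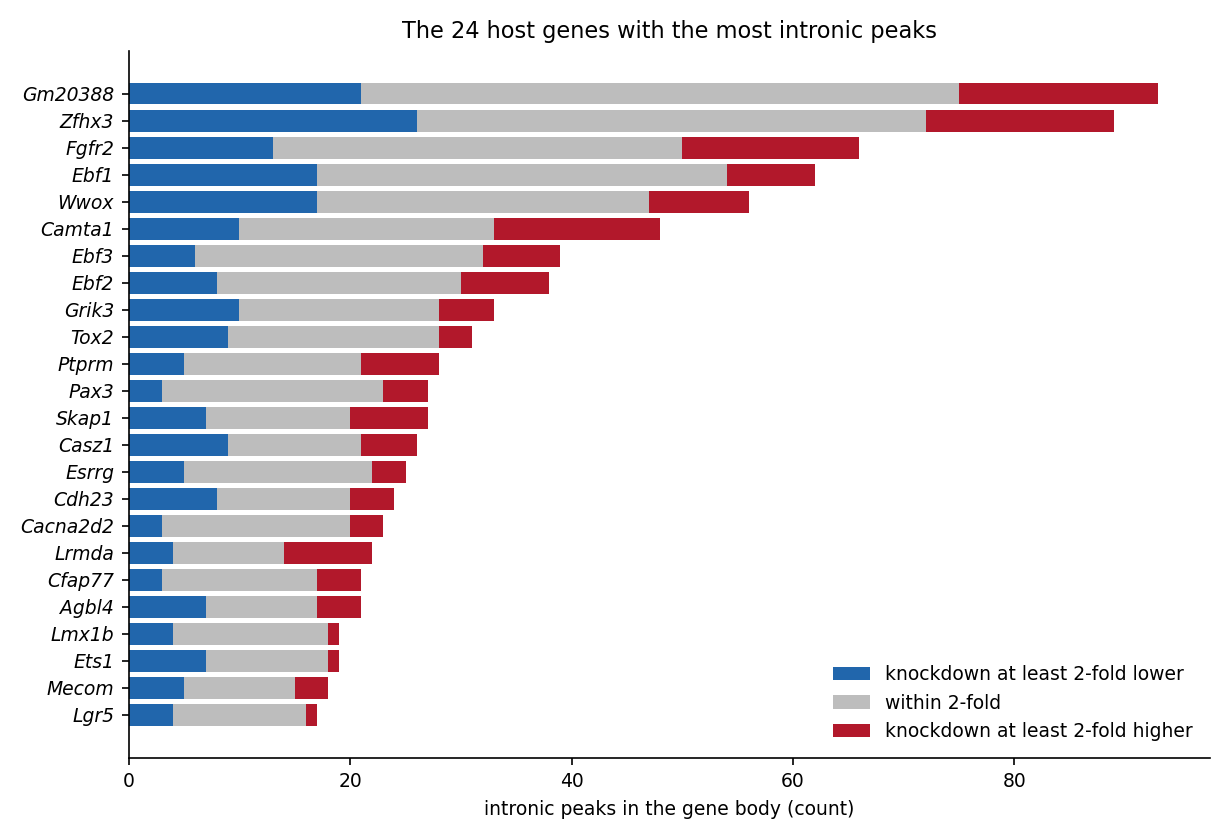
Number of intronic peaks (horizontal axis) in each of the 24 host genes that hold the most, split into peaks with a knockdown mean at least 2-fold lower than the control, within 2-fold, and at least 2-fold higher. Gm20388 leads with 93, followed by Zfhx3 with 89, and every gene holds peaks of all 3 kinds.

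Of the 12 hosts with the most members, the first and the third owed their count to very long gene models. Gm20388 (93 members) is a model of 4435 kb on chromosome 8 that contains 71 other protein-coding genes and has no RefSeq counterpart. Its members lay nearest to the starts of Irf8 (25 members), an interferon regulatory factor, and Foxf1 (13), a forkhead factor. Fgfr2 (66 members), a fibroblast growth factor receptor, has a model of 2961 kb on chromosome 7, of which its RefSeq body takes 104 kb and holds 1 of the members. Most of the others lay nearest to Bub3 (26) and Gpr26 (20). These 2 models stood at 101% and 98.2% of the control.

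Zfhx3, a zinc finger and homeobox transcription factor, came next in count, with 89 members over a model of 1019 kb on chromosome 8. Its RefSeq body takes 682 kb and holds 58 of them, so part of its count also comes from the longer model. Its control means ran from 0.18 to 4.96 with a median of 3.27, and its knockdown means from 0 to 5.43 with a median of 3.09. The summed knockdown level was 86.9% of the control, with 26 members at least 2-fold lower and 17 higher. The range of differences, -3.90 to 3.91, was far wider than the median difference of -0.18.

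The 3 early B cell factor genes, helix-loop-helix transcription factors of neuronal and B cell differentiation, were all among the leading hosts. Ebf1 on chromosome 11 held 62 members in 391 kb, with group medians of 3.04 and 2.95, control first, 17 members lower, 8 higher, and a sum of 81.5% of the control. Ebf2 on chromosome 14 held 38, with medians of 3.49 and 3.43, 8 lower and 8 higher, and 98.9%. Ebf3 on chromosome 7 held 39 in 121 kb, with medians of 3.62 and 3.59, 6 lower and 7 higher, and 96.4%. All 3 had a listed peak at their start. The members of Ebf1 were the weakest of the 3 by median, and its sum was the lowest relative to the control.

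Within Ebf3 the sign of the difference went with position. All 9 members within 25 kb of its start had a lower knockdown mean, with differences from -2.54 to -0.02 and a sum of 59.6% of the control, while the 30 further in stood at 115.3%. Pax3, a paired box factor of the neural crest with 27 members in 95.9 kb, had 9 of 11 members within that distance lower, at 68.8%, and 99.3% further in. Over all 60 hosts with 10 or more members, Ebf3 and Pax3 among them, the 175 members within 25 kb stood at 84.0% and the 1132 further in at 95.4%. The 25 kb limit was chosen after the Ebf3 values had been seen, so a total that holds Ebf3 is no separate check of it. By distance to the nearest gene start of any type, all members stood at 98.8% from 3 to 10 kb and 97.4% from 10 to 30 kb. From 30 to 100 kb they stood at 99.1%, and at 100 kb or more at 100.4%. As a whole, Pax3 had medians of 3.37 and 3.39, with 3 members lower, 4 higher and a sum of 83.1%.

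The other leading hosts had roles in neurons or broadly. Grik3, a kainate-type glutamate receptor subunit, held 33 members, with control and knockdown medians of 3.42 and 3.15, a median difference of -0.48, 10 lower and 5 higher, and 81.8% of the control. Tox2, an HMG-box factor, held 31, with medians of 3.42 and 3.02, 9 lower and 3 higher, and 78.7%. Wwox, an oxidoreductase gene at a fragile site, held 56 and no peak at its start, with medians of 3.15 and 2.90 and 92.2%. Camta1, a calmodulin-binding transcription activator, held 48, with 10 lower and 15 higher and 106%. Ptprm, a receptor tyrosine phosphatase, held 28, with 5 lower and 7 higher and 111%.

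Other hosts with many members were of mixed kind. Skap1, an adaptor of T cells, held 27 members, 7 lower and 7 higher, and stood at 94.2% of the control. Casz1, a zinc finger factor of heart and retina development, held 26, 9 lower and 5 higher, at 85.7%. Esrrg, an orphan nuclear receptor, held 25, 5 lower and 3 higher, at 87.4%, and Lmx1b, a LIM homeobox factor, held 19, 4 lower and 1 higher, at 93.2%. Lrmda, over 1036 kb, held 22, 4 lower and 8 higher, and stood at 116%. Cfap77, a gene of ciliary axonemes, and Agbl4, a tubulin-modifying carboxypeptidase, held 21 each and no peak at their start, and stood at 89.3% and 86.9%. Of these 7, Lrmda had the lowest control median, 2.41, and Lmx1b the highest, 3.80.

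Per length of gene, the densest host was Cdkn2a, the locus of the cell cycle inhibitors p16 and p19Arf and a textbook Polycomb target, with 10 members in 20.2 kb or 49.6 per 100 kb. All lay in intron 1 of its longest transcript. Distances were taken from 1 start per gene, and how near these members lay to starts of its other transcripts was not examined. From the start inward, the control means were 3.65, 4.87, 3.26, 1.83, 4.74, 3.65, 4.38, 3.86, 4.17 and 5.27. In the same order the knockdown means were 0.77, 4.07, 4.26, 2.26, 3.35, 4.40, 3.32, 4.03, 3.20 and 3.72. The knockdown mean was the lower in 6 and at least 2-fold lower in 4, none was at least 2-fold higher, and the sum was 65.7% of the control.

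Hoxc4, a homeobox gene of the Hoxc cluster, held 7 members in 17.9 kb. Its control means from the start inward were 5.73, 4.79, 3.63, 3.71, 4.53, 4.58 and 3.72, and its knockdown means 5.66, 3.61, 4.17, 3.29, 3.90, 3.06 and 3.54. The knockdown mean was lower in 6 of 7, and the sum was 75.4%. Gdf6, a BMP family ligand, held 6 in 17.97 kb and had the opposite balance, with control means of 5.38, 1.80, 1.94, 4.28, 4.14 and 2.50 and knockdown means of 4.09, 3.96, 3.08, 4.56, 4.76 and 3.69. It was higher in 5 of 6 members, and the sum was 114%. Ebf3, with 32.3 per 100 kb, and Fam222a, with 14 members in 45.2 kb and 93.0% of the control, were the other 2 of the densest 5.

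The hosts at the extremes of the ratio, among the 60, were chosen after their values were seen. A choice on the ratio to the control favours high control levels at its low end and low ones at its high end. Their control levels are therefore no separate result. Kank1, a cytoskeletal adaptor with 14 members, stood lowest at 62.9%, with control and knockdown medians of 3.35 and 2.74, 5 members lower and 0 higher. Bcor, a BCL6 corepressor and subunit of a Polycomb repressive complex 1 variant, stood at 70.3% over 13 members, and Ets1, a lymphoid and endothelial factor, at 75.6% over 19. All 3, and Cdkn2a, had a peak at their start, as had most of the 60.

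At the other end, Rora, an orphan nuclear receptor with 10 members over 734 kb, stood at 204%. Its control means from the start inward were 2.97, 1.31, 0, 2.57, 2.08, 0, 0, 2.67, 1.96 and 3.27, and its knockdown means 1.70, 3.18, 2.58, 3.73, 2.92, 3.37, 3.07, 2.28, 2.47 and 3.84. The knockdown mean was higher in 8 of 10, and 3 control means were listed at 0. Atp8a2, a phospholipid flippase, stood at 185% over 12 members, with medians of 1.96 and 2.91 and 6 members at least 2-fold higher against 1 lower. Neither had a peak at its start. The next 4 did: Ptprt, a receptor tyrosine phosphatase of neuronal adhesion with 11 members over 1139 kb, stood at 150%, with medians of 2.15 and 3.10, 3 members higher and 0 lower. The others were Eya2, a transcription coactivator of sensory organ development (147%), Kcnip1, a potassium channel interacting protein (144%), and Nhsl2 (138%).

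**Figure D4:**
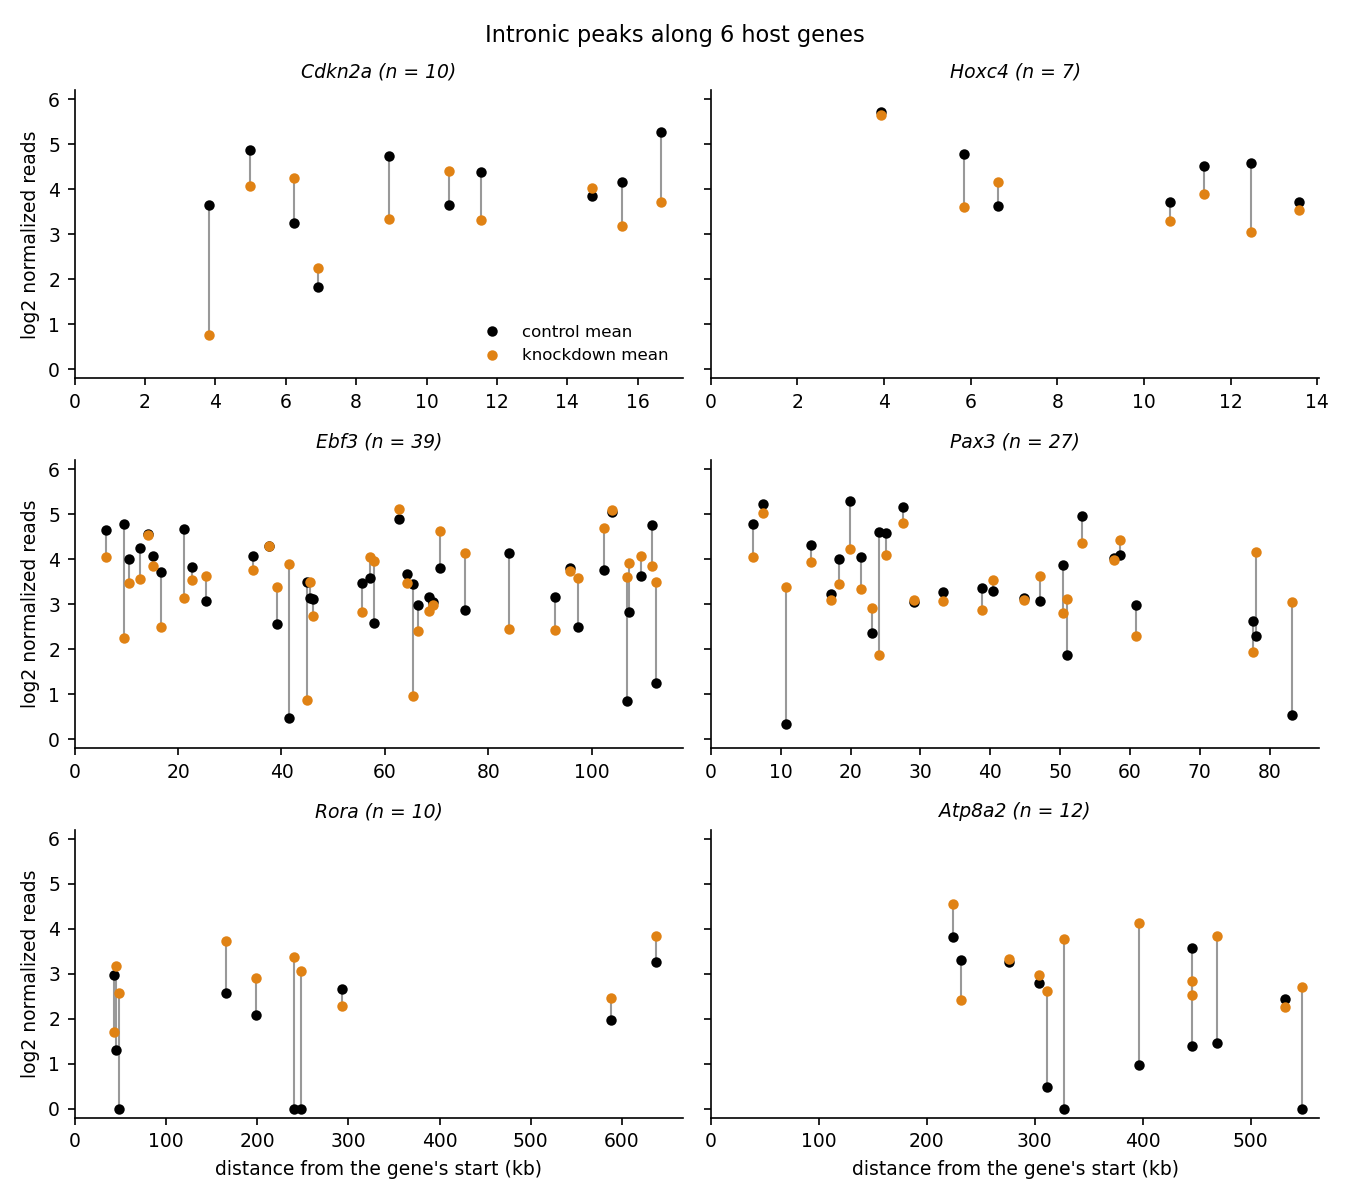
Group means of each intronic peak (vertical axis, log2 normalized reads) against its distance from the gene's start (horizontal axis, kb) in 6 host genes, with black points for the control, orange points for the knockdown and a grey line joining both means of a peak. The knockdown points lie below the control points near the start of Ebf3 and over most of Cdkn2a and Hoxc4, and above them over most of Rora and Atp8a2.

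Gene families were read through 9 lists of host genes, each described by its count and sum beside 4.86 members per Mb of gene body and the shares of 23.3% lower and 22.6% higher over all protein-coding hosts. Developmental transcription factors of the homeobox, forkhead, Sox, T-box and similar families were the densest: 63 of 228 genes held 452 members, or 35.4 per Mb. Of these members 102 (22.6%) were at least 2-fold lower and 73 (16.2%) higher, and the sum was 89.0% of the control. Their control median was 3.36 and their knockdown median 3.21, and 48 of the 63 hosts had a peak at their start. Zfhx3, Pax3 and the 3 early B cell factor genes held 255 of the 452, and without them the density was 18.03 per Mb and the sum 89.5%.

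Synaptic adhesion genes, such as neurexins, contactins and receptor phosphatases, were the sparsest and leaned the other way. Of 53 such genes 31 held 99 members, or 2.65 per Mb, and 9 of the 31 had a peak at their start. The medians were 2.28 and 2.66, 14 members (14.1%) were at least 2-fold lower and 32 (32.3%) higher, and the sum was 126%. The host with most was Ptprt, and the strongest member lay in intron 2 of Ntm, which encodes the adhesion protein neurotrimin, at 2.87 in the control and 3.88 in the knockdown. At a median overall mean of 2.46 these were weak peaks: in all members between 2 and 2.5 by the equally weighted mean, 26.6% were lower and 27.7% higher.

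Neuronal signalling genes lay between. Voltage-gated channel genes held 142 members in 51 of 137 genes, 26 lower and 32 higher, with a sum of 103%. Cacna2d2, an auxiliary calcium channel subunit, led with 23 members and held the strongest, at 5.07 in the control and 5.06 in the knockdown. Neurotransmitter receptor genes held 95 members in 19 of 49 genes, 26 lower and 18 higher, and 92.4%. Grik3 held 33 of them, and without it the sum was 99.9%. The strongest lay in intron 1 of Grm4, a metabotropic glutamate receptor, at 4.88 and 4.68, though outside any RefSeq protein-coding gene body. Axon guidance genes held 57 members, 14 lower and 16 higher, and 92.9%. Slit1, a repulsive guidance ligand, led with 8. The strongest member lay in intron 2 of Ntn1, the guidance ligand netrin 1, at 5.65 in the control and 4.32 in the knockdown. It lay outside any RefSeq protein-coding gene body, and the RefSeq body of Ntn1 holds 5 of its 6 members. Without the 6 members of Ntn1 the sum of this list was 100.1%. Cadherin genes held 78 members, 25 lower and 20 higher, and 96.5%, with 24 of them in Cdh23, whose strongest member stood at 5.04 and 5.05.

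The remaining lists were Wnt, BMP, FGF and hedgehog genes, extracellular matrix genes and glial genes. The first held 105 members, 20 lower and 30 higher, and 104%, but 66 of these were in the overlong Fgfr2 model, without which the sum was 113%. Extracellular matrix genes held 48, 15 lower and 7 higher, with a median difference of -0.37 and a sum of 81.9%. Col13a1, a transmembrane collagen, led them with 7 members and 69.3%, and the strongest lay in Adamts16, a matrix protease, at 4.04 and 4.03. Glial genes held 11 members in 5 of 20 genes, 2 lower and 3 higher, and 110%. Cspg4, a proteoglycan gene of oligodendrocyte precursors, held 2 of the 3 higher members, with control means of 1.73 and 0 and knockdown means of 2.98 and 3.52. Without it the sum was 89.2%, and without Tcf7l2 it was 166%. Pdgfra, a growth factor receptor of the same cells, held 2 members at 89.7%, and Mbp, a myelin protein gene, held 1 at 75.8%. Tcf7l2, a Wnt effector with a role in oligodendrocyte maturation, had 5, with control means of 1.51, 2.46, 3.69, 3.16 and 3.62 and knockdown means of 1.78, 1.49, 1.18, 3.86 and 1.00. In Sox10, the oligodendrocyte and neural crest factor, the only member was higher in the knockdown, at 3.19 and 4.44.

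Among the 6 strongest members, by the mean over all libraries, no difference reached 2-fold. They included peaks at Sim1, a factor of hypothalamic neurons (5.90 in the control, 5.42 in the knockdown, chr10:50900066-50901640), Hoxc4 (5.73 and 5.66, chr15:103022040-103023709) and Tfap2b, an AP-2 factor (5.73 and 5.26, chr1:19216283-19218056). A further 2 lay in the overlong models of Gm20388 (5.19 and 5.81) and Fgfr2 (5.49 and 5.39). Of these 5, 4 were lower in the knockdown, by 0.07 to 0.48 on the log2 scale, and the Gm20388 member was higher by 0.62. Of the 253 members at 4 or above on the same mean, 15.0% were at least 2-fold lower and 6.72% higher.

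The largest differences were sought among members strong enough to be read in at least 1 group. Among members with both means above 0 and an overall mean of at least 3, the lowest knockdown means relative to control were in Lman1, a cargo receptor of the early secretory pathway (4.50 in the control and 0.01 in the knockdown), Gm4894, a predicted gene (4.36 and 0.05), Pax8, a paired box factor (4.66 and 0.38), Esrp1, an epithelial splicing regulator (4.62 and 0.72), and Wwox (4.37 and 0.51). Those with the highest were in Zfhx3 (0.53 and 4.45), Tex14, a germ cell gene (0.19 and 4.08), Grik3 (0.71 and 4.09), Fbxw4, an F-box gene (0.87 and 4.13), and Capn8, a calpain (1.01 and 4.27). Each of these 10 had a lower group mean of about 1 to 2 normalized reads. They were picked as the extremes of the list and carry no error. The Lman1 member lay outside any RefSeq protein-coding gene body.

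Of members listed at 0 in the knockdown, the strongest in the control lay in Rspo4, an R-spondin that enhances Wnt signalling (4.44), Otop2, a proton channel (4.43), and Pax5, the B cell paired box factor (4.37). Of those listed at 0 in the control, the strongest in the knockdown lay in Rgs6, a regulator of G protein signalling (4.70), Grm4 (4.48) and Tgfbr3, a TGF-beta co-receptor (4.32). The Rgs6 member had no other listed peak within 330 kb, whereas the Pax5 member was 1 of 14 in its host, which as a whole stood at 82.9% with 4 lower and 1 higher. Hosts with many members held large differences of both signs, as in Wwox, where they ran from -3.86 to 3.58.

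In base composition the members were like intergenic peaks and unlike peaks at starts. Their median GC content was 48.2%, against 47.5% for intergenic peaks, 53.6% for exonic peaks and 58.4% at gene starts. The ratio of observed to expected CpG had a median of 0.193, against 0.172, 0.320 and 0.547, and 0.527 in peaks of 2 kb or more. A GC content over 50% with a CpG ratio over 0.6, a common rule for a CpG island, was met by 46 members (0.881%), against 40.8% of peaks at starts. These 46 had a control median of 3.16, a knockdown median of 3.25 and a summed knockdown level of 103%, beside 98.5% for the others. Repeat-masked sequence took a median of 10.7% of a member, and 7.37% of members were masked over at least 50% of their length.

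The difference between the groups followed no steady order with GC content. The summed knockdown level was 96.4% of the control in the 463 members below 40% GC, 99.5% at 40 to 45%, 96.8% at 45 to 50%, 98.9% at 50 to 55% and 103% in the 526 members above 55%. The median overall mean was 2.51 below 40% GC and 2.85 above 55%. In the central 150 bases, read on both strands, the letters CACACACA stood in 4.79% of members and 4.14% of all peaks, GAGAGAGA in 2.66% and 2.66%, the E-box CAGCTG in 9.25% and 9.36%, and TTCAGCAC, a core of the REST site, in 0.536% and 0.613%. A match describes the letters and is not a bound site.

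**Figure D5:**
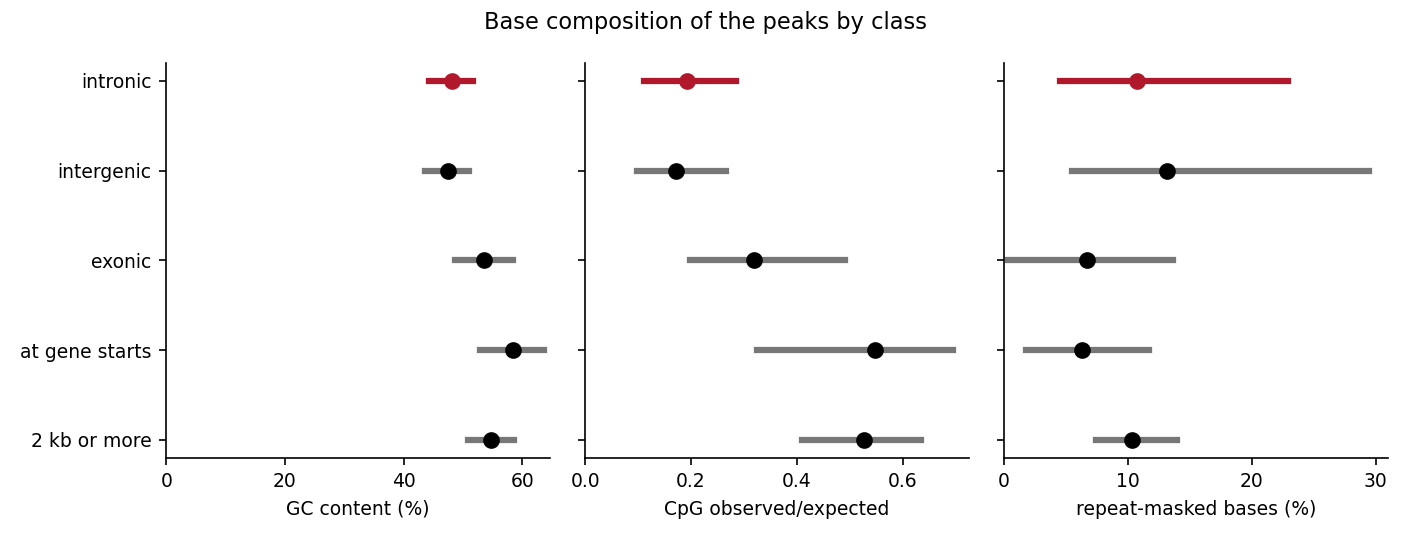
GC content (%), ratio of observed to expected CpG, and repeat-masked bases (%) of intronic, intergenic, exonic and gene start peaks and of peaks of 2 kb or more; points are medians and bars run from the lower to the upper quartile. The intronic peaks overlap the intergenic ones on all 3 axes and lie left of the gene start peaks on the first 2.

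The label of the cells was read against starts of marker genes, since silent genes are more likely to carry the mark. Of 10 neuronal marker genes 4 had a listed peak within 3 kb of their start, where 13.5% of all protein-coding genes had one. These were Syt1, Slc17a7, Gad1 and Gad2, and the peak at Gad2 was the widest at 2246 bp. Of 4 astrocyte and 4 microglia markers, 0 had one, of 4 oligodendrocyte markers 2 had one (Olig2 and Sox10), and of 4 endothelial markers 1 (Cldn5). The mark does not measure expression, so these counts do not settle which cells the cultures held. Rbfox3, which encodes the neuronal nuclear antigen NeuN and had no peak at its start, held 11 members in 422 kb. Their control means ran from 1.45 to 4.44 and their knockdown means from 1.66 to 4.17, with 2 members lower, 1 higher and a sum of 88.5%.

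The 166 members on chromosome X stood at 91.0% of the control, with a median difference of -0.20, and by autosome the median difference ran from -0.26 on chromosome 19 to 0.21 on chromosome 5. The study does not state the normalization, which can fix the ratio of the groups across the list. Sums are given as percent of the control, and over all listed peaks the sum was 97.1%. A value near 97.1% is thus no departure from the whole list. The depth of each library is unknown here, and input reads were not used.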

How the data were processed

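H3K27me3 was measured by ChIP-seq in cultures given a control or a NeuID gapmer. Single-end reads had been aligned by the authors to mm10 (bowtie2), broad peaks called (MACS2) and groups compared (DiffBind). For each peak the deposited log2 values are means of normalized reads, one over every library and one per group. Normalization, merging of peaks and handling of duplicates and input were not given in the sources used here. Columns of the authors' own comparison (fold, p-value and FDR) were not used. The number of other per-sample columns left unused was 0, and library depth is unknown.

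Peaks were compared with GENCODE M21 genes, exons and gene starts, and with RefSeq GRCm38.p6 gene bodies and sequence. Each gene had 1 start, and introns were numbered along its longest transcript. The listed width was used for the limit of 2000, and a member in several genes counted for each. The difference is the knockdown minus the control log2 mean, with a 2-fold limit. Sums were taken over means returned to the linear scale, a mean listed at 0 counting as 0 reads. With group means only, no test was run. Peaks at starts lay within 1 kb of a protein-coding start, and exonic and intergenic peaks over 3 and 10 kb from any start.

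The text names the 12 hosts with most members, the 5 densest with at least 4, the 6 strongest members (1 is not reported here), the 5 largest differences and the 3 strongest members listed at 0 in 1 group in each direction, and per list the leading host and member. Other names were chosen after their values were seen. The members and lists were chosen with earlier results of these data known. The classification was checked against a plain scan and the 2-fold limit on simulated data. The simulated noise was far smaller than the spread of these members, so it cannot show how often noise passes the limit here. Software was pysam 0.24.0, matplotlib 3.10.9, pandas 2.3.3, numpy 2.4.6 and Python 3.11.15.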

Additional observations from a re-analysis of the deposited data

How the results depend on the processing

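No paired analysis was possible because only group means were used, and leaving out single replicates could not be run for the same reason. The number of members, the median difference, the shares at least 2-fold lower and higher and the share listed at 0 in 1 group (8.33%) stayed within counting error, or within 1.5 times for the number, with distances over 1 or 10 kb, widths below 1000, exons of protein-coding genes only, repeat-masked peaks left out, autosomes only, and centring on the median of all peaks. They also did with 3 alternatives chosen after seeing the data: distance from every transcript start (4619 members), members inside RefSeq gene bodies (4843), and without the models of Gm20388 and Fgfr2 (5091). Counting error took the peaks as independent, although all share the same libraries. These settings kept most of the same members, which left little room for a change. Leaving single hosts out of the gene lists was also chosen after seeing the data. Restricted to an overall mean of at least 4, 253 members remained, with a median difference of -0.15, 15.0% lower, 6.72% higher and 0% listed at 0 in 1 group. With both groups above 0, 20.6% were lower and 20.4% higher, and with a limit of 4-fold 10.3% and 9.44%. Of the 60 hosts with 10 or more members, 22 were also among the 60 densest, and 33 hosts reached 10 when peaks less than 3 kb apart were counted as one. Levels of 6.76 normalized reads per member limit what single peaks can show.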
